A study of Mus musculus and Homo sapiens with 12 samples.

Results

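The genes described here encode the enzymes known or proposed to remove 5-methylcytosine (m5C): the TET oxidases TET1, TET2 and TET3, and the dioxygenase ALKBH1. They were found by Ensembl identifier in all 12 libraries, as 4 genes among the 54446 of the mouse tables (Tet1, Tet2, Tet3, Alkbh1) and 4 among the 58721 of the human tables (TET1, TET2, TET3, ALKBH1). The values are read counts of their transcripts in chromatin-associated RNA (caRNA), isolated from the chromatin fraction of the nucleus, so they show the messages of the erasers and not the activity of the proteins. Wild-type mouse embryonic stem cells (mESC), derived from embryos, kept in medium with LIF, CHIR99021 and PD0325901 and passaged on gelatin to clear feeder cells, gave 3 Input libraries of fragmented caRNA and 3 IP libraries of fragments pulled down with an anti-m5C antibody. Wild-type K562, an established human leukaemia cell line gave 3 of each as well. The growth label lists puromycin in its medium, while the study's methods name that agent for other, engineered lines. None of these genes was deleted in any group, and no inhibitor of their enzymes was listed. CHIR99021 and PD0325901 were in the mESC medium alone. The groups differ in cell line, with its species and medium, and in pull-down. The labels do not say whether the libraries of a group came from separate cultures, so p-values measure the spread between these libraries, which may be technical.

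TET proteins are iron- and 2-oxoglutarate-dependent dioxygenases that oxidise 5-methylcytosine stepwise to 5-hydroxymethylcytosine and further products, best known as the route to DNA demethylation. TET2 has also been linked to oxidation of m5C in RNA, through the RNA-binding protein PSPC1, and it lacks the CXXC DNA-binding domain that TET1 and TET3 carry. ALKBH1 belongs to the AlkB family of dioxygenases and acts on m5C in transfer RNA. In embryonic stem cells Tet1 and Tet2 are the forms known to be expressed, with Tet3 rising on differentiation, and TET2 is often mutated in myeloid leukaemia.

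Depth set how well each gene was measured. Gene counts ranged from 29007088 to 34752646 in mESC Input and from 473398 to 592324 in mESC IP, and from 10477119 to 11865285 in K562 Input and 93110 to 111286 in K562 IP. The K562 Input libraries differed from each other over genes by about sampling noise, with chi-square per degree of freedom between 0.912 and 1.03, yet they differed over 20 bins of GC content by 20.1 to 85.7 per degree of freedom, so they were kept as 3 libraries and results were also computed with them summed to 1. Of the stem cell markers, 7 of 8 were above 1 CPM (counts relative to the gene total of the library) in mESC Input and Sox2 was listed at 0, and their sum was 2161 to 2187 CPM. Of the K562 markers, 6 of 8 were above 1 CPM in K562 Input (summed 629 to 651 CPM) and HBG2 and HBE1 were listed at 0. Markers of feeder fibroblasts summed to 66.9 to 69.7 CPM in mESC Input, with 4 of 8 above 1 CPM, led by Col1a1 at 29.4 CPM and Lum listed at 0. Their part in the values below was not tested. In such bulk samples, fewer cells of a type and less RNA per cell cannot be told apart.

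All 4 mouse genes lie on the minus strand of GRCm38 and are long except Alkbh1. Tet1 (ENSMUSG00000047146) spans chr10:62804570-62908996 and Tet2 (ENSMUSG00000040943) spans chr3:133463679-133545139. Tet3 (ENSMUSG00000034832) spans chr6:83362373-83459084, and Alkbh1 (ENSMUSG00000079036) covers 18178 bp at chr12:87425840-87444017. In GRCh38, TET1 (ENSG00000138336) lies at chr10:68560337-68694487, TET2 (ENSG00000168769) at chr4:105145875-105279816 and TET3 (ENSG00000187605) at chr2:73984910-74108176, all on the plus strand, with ALKBH1 (ENSG00000100601) on the minus strand at chr14:77672404-77708023. Exonic GC content was 53.5% for Tet3 and 52.9% for TET3, against 40.9% to 45.4% for the other members of both species. Genes annotated across the members were counted over their whole length, and reads set aside as ambiguous are left out. Their counts therefore do not measure the overlap. Gm42567, on the opposite strand, overlapped the start of Tet2 by 43 bp and held 123 to 143 counts per mESC Input library. Slirp, on the opposite strand, overlapped the start of Alkbh1 by 122 bp with 443 to 535 counts. B230319C09Rik, opposite Tet3, held 0 to 3, and the lncRNA ENSG00000235499 inside TET3 held 56 to 73 counts per K562 Input library and 0 in IP. TET2-AS1, opposite TET2, held at most 1.

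The 5 peaks of m5C in these gene bodies were each seen in a single library, as most regions of all peaks were, and 4 fell in Tet3. The mESC lists held 11146, 15404 and 15797 peaks for replicates 1, 2 and 3. None lay in Tet1 or Alkbh1, 1 lay in Tet2 and 4 lay in Tet3, where 41.2% of the genes tested in mESC held at least 1. Replicate 1 had none of the 5. No region was shared by 2 replicates, and the nearest peak of another replicate was between 4660 and 55018 bp away. Over all peaks, 4807 of 35162 merged regions were in at least 2 replicates, and 2.23% of tested genes held a region in all 3. The 4 peaks of Tet3 gave 4.14 per 100 kb of gene body, and 81.1% of tested genes had a lower density, while all tested genes together had 1.87 per 100 kb and the 4 members 1.66. Extending the bodies by 5 kb on each side added none.

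The peaks outside annotated untranslated sequence are shown because they are the fragments the pull-down singled out in these genes. Each is read 5′ to 3′ on the strand the list gives, from the GRCm38 sequence, with cytosines, the base the antibody reads in its methylated form, in capitals.
Tet2 intron, replicate 3, chr3:133497319-133497468, plus strand: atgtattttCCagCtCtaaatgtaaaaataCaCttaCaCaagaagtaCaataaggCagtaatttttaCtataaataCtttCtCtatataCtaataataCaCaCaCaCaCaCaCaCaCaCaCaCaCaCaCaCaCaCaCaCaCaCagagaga
Tet3 intron, replicate 2, chr6:83396085-83396235, plus strand: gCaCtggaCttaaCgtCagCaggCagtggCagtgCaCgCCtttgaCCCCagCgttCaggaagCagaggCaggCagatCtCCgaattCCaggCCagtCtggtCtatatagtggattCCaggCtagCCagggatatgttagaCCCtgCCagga
Tet3 intron, replicate 3, chr6:83391276-83391425, minus strand: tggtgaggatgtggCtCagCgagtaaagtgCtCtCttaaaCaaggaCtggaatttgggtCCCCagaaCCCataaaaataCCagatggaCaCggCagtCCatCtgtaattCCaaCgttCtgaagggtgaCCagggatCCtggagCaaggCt
Tet3 coding exon, replicate 3, chr6:83373272-83373421, plus strand: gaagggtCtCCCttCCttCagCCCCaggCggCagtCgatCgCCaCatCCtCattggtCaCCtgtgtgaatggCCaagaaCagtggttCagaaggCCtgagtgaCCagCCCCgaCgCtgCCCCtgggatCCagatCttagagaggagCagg

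The Tet2 peak held 38 cytosines and no CpG, and most of its cytosines lie in an unbroken run of 23 CA units. A run of at least 10 CA units, read on either strand, occurred in 9.80% of the 41902 peaks on assembled chromosomes. The 3 Tet3 peaks printed above held 33 to 46 cytosines and 3 to 5 CpG, where the median peak held 3. The coding-exon peak overlapped exon sequence over 60 of its 150 bp, and the rest was intron. Repeat-masked bases made up 41.3% of the Tet2 peak, 56.3% and 27.3% of the intronic Tet3 peaks and 0% of the coding-exon peak, beside a median of 50.7% over all peaks. The remaining Tet3 peak (chr6:83441460-83441609, replicate 2) lay wholly in an untranslated or non-coding first exon, and within an intron by other transcript annotation. The peak centre was 97.5 bp after the nearest GENCODE transcript start, and the sequence of this peak is not printed. It held 16 CpG and 73.3% GC. Of all peaks, 5.30% held 16 or more CpG. It lay on the strand of the gene, as did 1 of the intronic Tet3 peaks, while the other 3 peaks were recorded on the opposite strand. Over all tested genes, 41.8% of peaks in gene bodies were on the strand of the gene. How the recorded strand relates to the strand of the RNA was not stated.

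The 250 bp before the RefSeq start of Tet3 (GRCm38.p6, chr6:83441679-83441928, minus strand) are given with CpG in capitals, the dinucleotide at which DNA methylation occurs and TET enzymes act. This start is not the GENCODE start from which the distance of the first-exon peak was measured.
Tet3 upstream: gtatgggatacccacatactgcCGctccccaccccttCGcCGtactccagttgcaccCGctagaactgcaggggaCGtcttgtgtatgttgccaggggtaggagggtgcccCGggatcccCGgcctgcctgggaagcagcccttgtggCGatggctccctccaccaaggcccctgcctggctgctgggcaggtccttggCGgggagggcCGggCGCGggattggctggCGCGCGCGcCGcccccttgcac

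It held 17 CpG, and 76.5% of 32851 mouse promoters held fewer. Tet1 held 15, Alkbh1 18 and Tet2 51 in the same window, the last more than 99.9% of promoters. CpG was searched as the letters CG, which read the same on both strands, and the median promoter held 6.

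**Figure D1:**
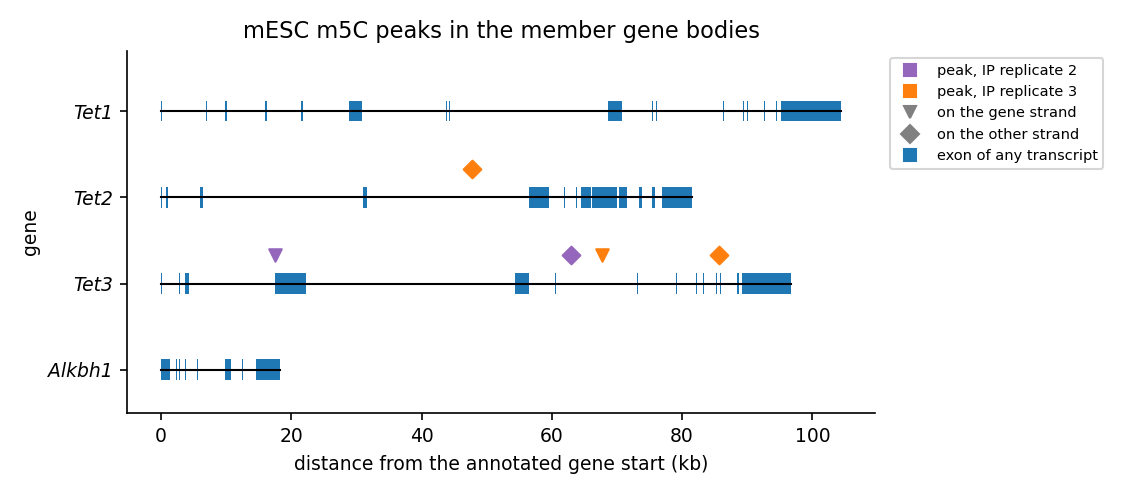
mESC m5C peaks along the 4 mouse member genes. The x axis is the distance from the annotated gene start in kb, blue boxes are exons of any transcript, and symbols mark peak centres by IP replicate (colour) and strand (shape); 4 peaks sit in Tet3, 1 in Tet2 and none in Tet1 or Alkbh1.

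In mESC Input, Tet1 was the highest of the 4 members in CPM and per kb of exons, and Tet3 the lowest. Tet1, in CPM per kb of exons, was 75.8, 77.4 and 76.5 in replicates 1, 2 and 3, above 98.5% of the 20244 genes tested. Alkbh1 followed at 36.5, 36.6 and 35.7, and Tet2 at 34.1, 35.3 and 34.8. Alkbh1 and Tet2 did not overlap, at a ratio of 1.04. Tet3 stood at 1.56, 1.51 and 1.54, a level 22.6 times below Tet2 and above 43.6% of tested genes. Per kb of exons the order was thus Tet1, Alkbh1, Tet2 and Tet3. At each step the higher gene was above the next in 3 of 3 libraries and their ranges did not overlap. In CPM without exon length Tet2 averaged 586 and Alkbh1 238, so the order of this pair depended on length. Whether the counts take in intron reads was not stated. Gene bodies span 104427 bp for Tet1, 81461 for Tet2, 96712 for Tet3 and 18178 for Alkbh1, and levels per kb of gene body were not computed. The order, and the percentiles, shares and line differences below that use exon length, hold for that length alone. Since both genes of a step were read in the same 3 libraries, no test was made between them.

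K562 Input had another order. TET1 was 23.2, 23.1 and 22.6 CPM per kb and TET3 was 22.4, 22.3 and 22.6, and their ranges overlapped. ALKBH1 stood at 12.3, 12.2 and 12.2 and TET2, the lowest, at 7.64, 7.60 and 7.48. TET1 and TET3 lay above 86.4% and 85.8% of the 14522 genes tested in K562, ALKBH1 above 70.3% and TET2 above 55.9%. In CPM without exon length the means were 291 for TET3, 221 for TET1, 125 for TET2 and 34.8 for ALKBH1. In IP the K562 order was TET3 at 19.2, TET1 at 18.9, ALKBH1 at 5.26 and TET2 at 4.16 CPM per kb on average. There, TET3 and TET1 overlapped, as did ALKBH1 and TET2, and the ALKBH1 mean came from 1 library.

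Set against each other with exon length in the model, the Input libraries of both lines differed for every member. TET3 was higher in K562 by a log2 of 4.10 (SE 0.031, adjusted p = 4.93e-53, edgeR quasi-likelihood test with Benjamini-Hochberg adjustment). The other members were lower in K562, TET2 with a log2 of -1.97 (SE 0.0233, adjusted p = 8.29e-46), TET1 with -1.51 (SE 0.0195, adjusted p = 2.40e-44) and ALKBH1 with -1.34 (SE 0.0377, adjusted p = 1.65e-31). Such calls were common: 94% of 12933 genes were called, 44.1% as higher in K562 and 49.9% as lower, and the median gene stood at -0.16. Line and species changed together in this comparison and cannot be told apart. Without the length term the log2 values were -2.42 for TET1, -2.22 for TET2, 3.51 for TET3 and -2.77 for ALKBH1.

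**Figure D2:**
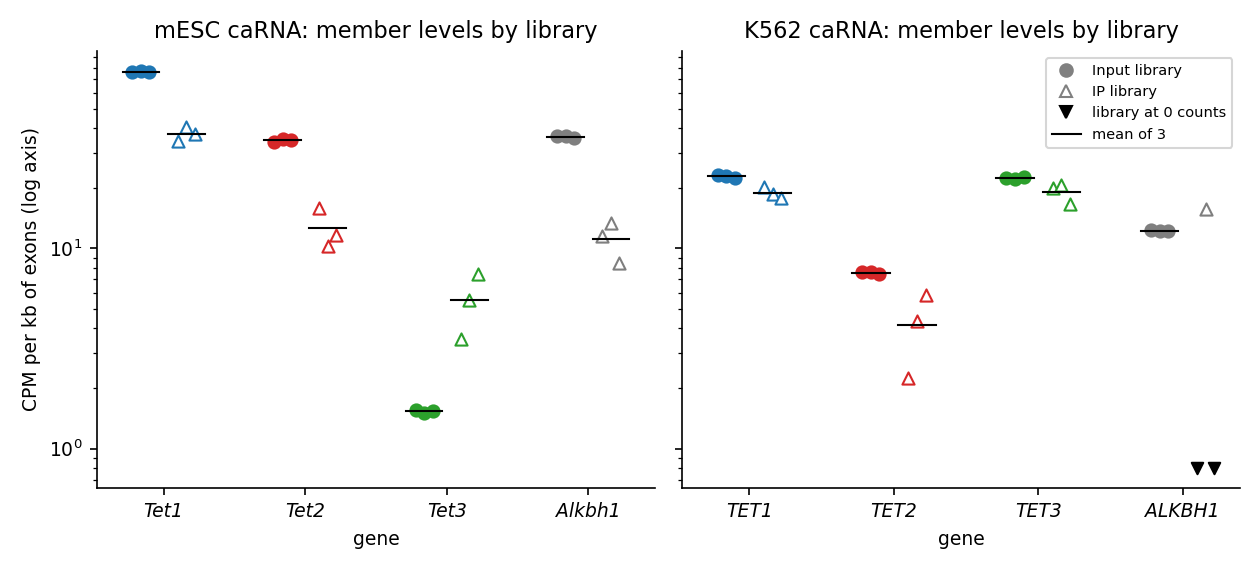
Level of each member in every library, in CPM per kb of exons on a log axis. Filled circles are Input and open triangles IP libraries, horizontal lines are means of 3 (none drawn for ALKBH1 IP) and black triangles are libraries at 0 counts, placed below the scale; Tet3 in mESC is the only member whose IP libraries all lie above its Input libraries.

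Within the TET family, Tet1 and Tet2 held the largest shares in mESC Input and TET1 and TET3 in K562 Input. Of the summed per-length TET level of a library, Tet1 made up 67.9% ± 0.111 (SD, n = 3), Tet2 30.8% ± 0.146 and Tet3 1.36% ± 0.0392 in mESC Input. In K562 Input, TET1 made up 43.3% ± 0.438, TET2 14.3% ± 0.0829 and TET3 42.4% ± 0.521. K562 minus mESC, the share of TET3 differed by 41.0 percentage points, that of TET1 by -24.5 and that of TET2 by -16.5. In all 3 cases the groups did not overlap (exact permutation p = 0.1, two-sided, adjusted 0.18 over 9 comparisons). Shares within a library do not depend on how libraries are scaled. The 3 shares make up a whole, so they are not independent, and how often shares of other genes separate was not computed. On raw counts without length the differences were -31.2 points for TET1, -13.0 for TET2 and 44.3 for TET3.

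In mESC the Tet3 share was higher in IP than in Input and the Tet2 share lower, both without overlap, at a p that cannot pass 0.05 in this design. Tet3 took 6.56%, 9.78% and 13.3% of the TET level in the 3 IP libraries, against 1.32% to 1.40% in Input, a difference of 8.51 percentage points (SE 1.94). Tet2 took 29.4%, 18.3% and 20.6% in IP against 30.6% to 30.9% in Input, a difference of -8.01 points (SE 3.40). Each had the smallest p possible for 3 libraries against 3 (exact permutation p = 0.1, two-sided, adjusted 0.18). These 2 differences are parts of the same whole and not independent, and how often shares of other genes separate was not computed. The Tet1 share, at 67.4% ± 4.12 in IP, overlapped with Input. In K562 no share separated. TET2 took 5.29%, 9.94% and 14.5% in IP, beside 14.2% to 14.3% in Input, and TET1 and TET3 differed from Input by 1.51 points (SE 1.48) and 2.86 points (SE 2.07).

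**Figure D3:**
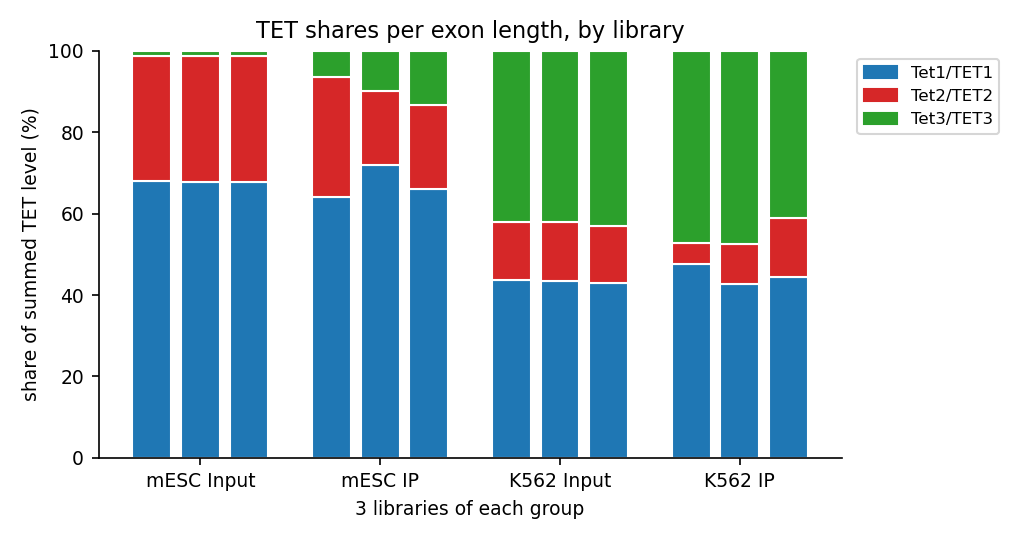
Share of each TET gene in the summed per-length TET level, in percent, for each library. Each bar is 1 library and the colours are genes; the Tet3/TET3 share is 1.36% on average in mESC Input, 9.87% in mESC IP, 42.4% in K562 Input and 45.2% in K562 IP.

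IP against Input asks which messages were over- or under-represented among the m5C fragments. In mESC, Tet3 was higher in IP than in Input, and Tet1, Tet2 and Alkbh1 were lower. Tet3 held 28, 54 and 74 counts in the IP libraries (59.1, 91.8 and 125 CPM) and 755, 831 and 893 in Input (26.0, 25.1 and 25.7 CPM). Its IP libraries lay above all Input libraries, and the IP held 156 counts where the share it has in Input would give 42.4. The fitted log2 IP/Input of Tet3 was 0.90 (SE 0.195, adjusted p = 0.000456, edgeR quasi-likelihood test). The IP libraries of this gene varied more among themselves (36% coefficient of variation) than its Input libraries (1.7%).

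Tet1 held 253, 368 and 341 counts in IP (534, 626 and 576 CPM) against 1172, 1196 and 1182 CPM in Input. Its fitted log2 IP/Input was -2.00 (SE 0.0586, adjusted p = 1.25e-13, edgeR). For Tet2 the IP libraries held 127, 102 and 116 counts (268, 173 and 196 CPM) against 576, 595 and 587 CPM in Input, with a log2 of -2.46 (SE 0.0977, adjusted p = 2.86e-12, edgeR). Alkbh1 was the lowest of the members, with 36, 52 and 33 IP counts (76.0, 88.4 and 55.7 CPM) against 240, 240 and 235 CPM in Input and a log2 of -2.68 (SE 0.130, adjusted p = 2.63e-11, edgeR). None of the 3 overlapped between IP and Input. The share of all genes tested that did not overlap was not computed. All 4 members were tested and called, beside 82% of 20244 genes, 39.9% as higher in IP and 42% as lower, with a median log2 of -0.17. Being called was thus the common case in this comparison, for members and other genes alike. Of the calls, 48.7% were higher in IP with TMM scaling and 67.9% with library size alone. The Tet1 value lay above 17.3% of all genes, Tet2 above 8.04%, Alkbh1 above 5.48% and Tet3 above 59.5%.

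The size of these values depended on the scaling, the Input depth and the GC correction. With library size alone the median gene moved from -0.17 to 0.83 and Tet3 stood at 1.91, Tet1 at -0.99, Tet2 at -1.46 and Alkbh1 at -1.67, all still called. A per-library correction for exonic GC moved the median gene to -0.58 and brought Tet3 to 0.43 (adjusted p = 0.0403, edgeR). The other members then stood between -3.04 and -2.24. The GC correction with replicate number as a block ended the Tet3 call (log2 0.36, adjusted p = 0.278, edgeR), with the median gene at -0.63. With Input thinned to the IP depth the values were -0.65 for Tet1, -1.15 for Tet2, -1.39 for Alkbh1 and 2.17 for Tet3, all still called. Leaving out 1 Input library, with the count filter applied again, put Tet3 between 1.55 (without replicate 2) and 1.58 (without replicate 1) and Tet1 between -1.32 (without replicate 1) and -1.31 (without replicate 2). On the unchanged gene list Tet3 stood between 0.87 (without replicate 2) and 0.89 (without replicate 3). Tet1 there stood between -2.02 (without replicate 1) and -1.99 (without replicate 3). 

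Ratios between members within a library do not depend on the scaling. The Tet2/Tet3 count ratio had a log2 of 4.52 ± 0.048 (SD, n = 3) in mESC Input and 1.25 ± 0.818 in IP, a difference of -3.27 (SE 0.473). Tet1/Tet3 differed by -2.81 (SE 0.283) and Tet3/Alkbh1 by 3.50 (SE 0.456). Tet1/Alkbh1 differed by 0.69 (SE 0.184). These 4 ratios separated IP from Input without overlap (exact permutation p = 0.1, two-sided, adjusted 0.18 over 9 ratios). Tet1/Tet2 at 0.45 (SE 0.251) and Tet2/Alkbh1 at 0.24 (SE 0.282) overlapped. The ratios without overlap were thus those with Tet3 and also Tet1/Alkbh1, at the smallest p possible for 3 libraries against 3. How often pairs of other genes separate was not computed in either line.

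IP/Input was lower at higher Input level over all genes, and the members differed in how they stood against genes of like level. Across the 20244 genes tested in mESC, Spearman's rho between Input CPM and log2 IP/Input was -0.80, a description over genes in which Input enters both measures. With exonic GC rho was 0.098. Tet3 belonged to the decile of genes with 16.2 to 32.3 Input CPM, whose median log2 IP/Input was -1.13 and whose upper quartile was -0.36, both below its 0.90. Tet1, Tet2 and Alkbh1 belonged to the highest decile, with a median of -1.94 and a lower quartile of -2.28. Tet1 lay close to that median, and Tet2 and Alkbh1 lay below the lower quartile. In K562 rho was -0.48 with Input CPM and 0.24 with GC. There TET1 (-0.48) and TET3 (-0.43) lay above the median of the highest decile (-0.62) and within its quartiles (-0.87 to -0.35). TET2 (-1.10) lay below the lower quartile of its decile (-0.82), and ALKBH1 (-1.33) below that of its own (-0.72).

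**Figure D4:**
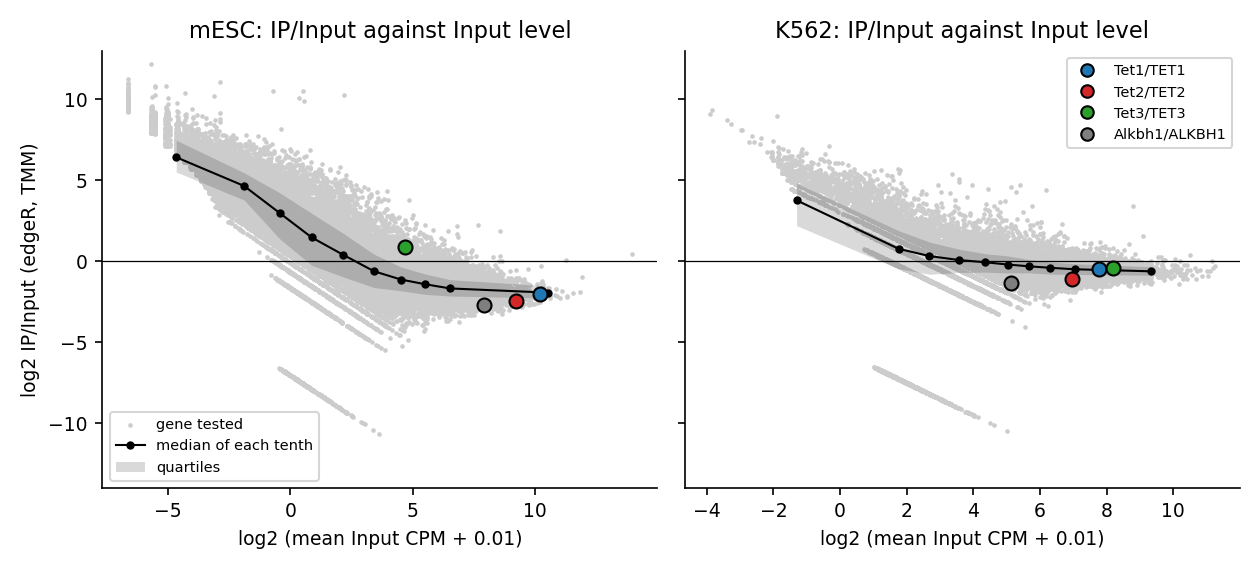
Log2 IP/Input against mean Input level for every gene tested in mESC (left) and K562 (right). Grey points are genes, the black line joins the medians of deciles by Input level, the band spans their quartiles and the coloured points are the members; Tet3 in mESC lies above the upper quartile of its decile, at 0.90 against -0.36.

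In K562, 3 members were lower in IP by edgeR and none was higher, with far fewer counts behind each value, and TET1 and TET3 were lower by less than the median gene of their Input decile. TET2 held 4, 8 and 9 counts in the IP libraries (37.1, 71.9 and 96.7 CPM) against 126, 125 and 123 CPM in Input. Its log2 IP/Input was -1.10 (SE 0.275, adjusted p = 0.000587, edgeR quasi-likelihood test), and IP and Input did not overlap. TET1 held 21, 20 and 16 IP counts (195, 180 and 172 CPM) against 223, 222 and 217 CPM, with a log2 of -0.48 (SE 0.184, adjusted p = 0.0329, edgeR). TET3 held 28, 30 and 20 (259, 270 and 215 CPM) against 290, 289 and 293 CPM, with a log2 of -0.43 (SE 0.162, adjusted p = 0.0318, edgeR). Both were without overlap between IP and Input. How often other K562 genes were without overlap was not computed. The median gene stood at -0.16. Of 14522 genes, 31.5% were called, 15.1% as higher in IP and 16.4% as lower.

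The calls of TET1 and TET3 were lost in several alternatives. Pooled CPM ratios, which use library size alone, were 0.826 for TET1 (exact 95% interval 0.625 to 1.07) and 0.859 for TET3 (0.679 to 1.07), both including 1. For TET2 the ratio was 0.538 (0.333 to 0.824). These intervals cover counting error only. Of the 3 called genes, DESeq2 called TET2 alone (log2 -0.98, adjusted p = 0.00929). Summing the K562 Input libraries to 1 sample ended the calls of TET1 (adjusted p = 0.138, edgeR) and TET3 (adjusted p = 0.149, edgeR) and kept that of TET2 (adjusted p = 0.0166, edgeR). With the GC correction TET2 stood at -0.67 and was no longer called (adjusted p = 0.0801, edgeR). Leaving out any 1 K562 Input library, with the count filter applied again, ended the calls of TET1 (log2 from -0.05 without replicate 3 to -0.03 without replicate 1), TET2 (-0.67 without replicate 3 to -0.65 without replicate 1) and TET3 (0.01 without replicate 1 or 2, 0.02 without replicate 3). On the unchanged gene list these 3 calls held without any Input library, all 3 were lost without IP replicate 1, and those of TET1 and TET3 were also lost without IP replicate 2 or 3. The share of K562 calls that were higher in IP was 47.9% with TMM scaling, 57.1% with RLE, 64.8% with DESeq2 and 70.2% with library size alone.

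ALKBH1 was below reliable detection in K562 IP. It held 416, 400 and 363 counts in Input (35.1, 34.7 and 34.6 CPM) and 0, 5 and 0 in IP, so every IP count came from replicate 2 and the groups overlapped. At the Input level 10.9 counts would have fallen in the 3 IP libraries. The pooled CPM ratio was 0.460 with an exact interval of 0.149 to 1.08, and the fitted log2 was -1.33 (SE 0.567, adjusted p = 0.0612, edgeR), which missed the threshold.

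Between members, the K562 IP libraries separated only TET1/TET2 from Input, with a log2 difference of 0.69 (SE 0.461, exact permutation p = 0.1, two-sided, adjusted 0.18). With 0.5 counts added it was 0.62 and overlapped (exact permutation p = 0.4). TET1/TET3 differed by -0.04 (SE 0.0792) and TET2/TET3 by -0.74 (SE 0.479), both with overlap. Ratios to ALKBH1 could not be formed in the libraries at 0.

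**Figure D5:**
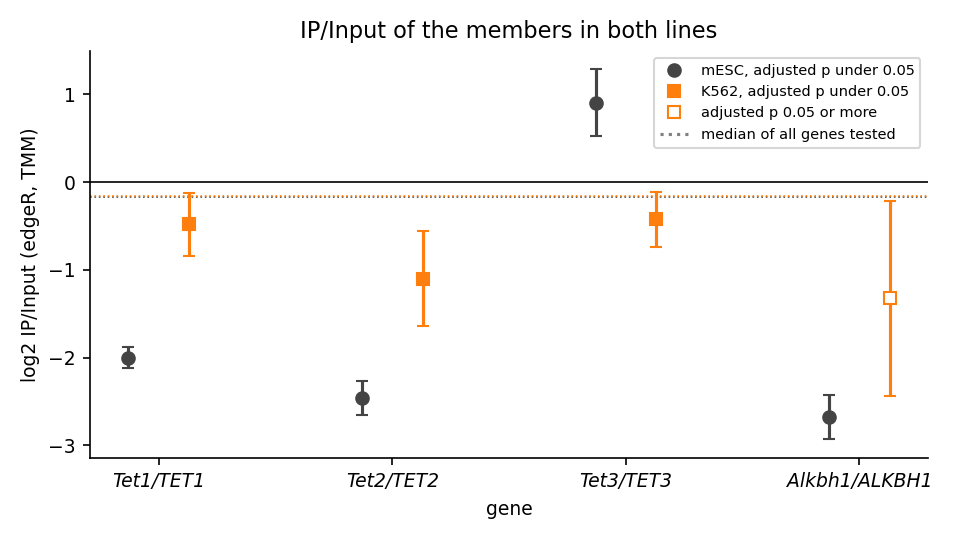
Fitted log2 IP/Input of each member in mESC (circles) and K562 (squares) with 95% intervals, 3 IP against 3 Input libraries. Open symbols did not pass an adjusted p of 0.05 and dotted lines mark the medians of all genes tested (-0.17 and -0.16); Tet3 in mESC, at 0.90, is the only member above 0.

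The difference between lines was tested as an interaction across the 12 libraries, on 14242 genes with the same symbol in both species. It was fitted on those genes with 1 scaling over all libraries, so its values are not the differences of the separate values above. TET3 differed most among the members: its log2 IP/Input was 1.97 lower in K562 than in mESC (log2 difference -1.97, SE 0.248, adjusted p = 2.91e-07, edgeR). TET1 was higher in K562 by 0.88 (SE 0.245, adjusted p = 0.0063, edgeR). The intervals of TET2, at 0.73 (95% interval -0.16 to 1.62, adjusted p = 0.241, edgeR), and ALKBH1, at 0.72 (-1.07 to 2.50, adjusted p = 0.623, edgeR), included 0, so these data neither show a difference nor bound it closely. In this comparison 30.9% of genes were called, 16.5% as higher in K562 and 14.5% as lower, with a median of 0.17. Of the calls, 53.2% were higher in K562 with TMM scaling, 35.3% with RLE, 39.9% with library size alone and 68.7% with the GC correction. TET3 kept its call in all 10 other fits of the libraries, between -2.61 and -1.24, and in all 24 fits without a library. TET1 lost its call with RLE (0.44), library size alone (0.57), DESeq2 (0.44) and Input thinned to IP depth on the unchanged gene list (0.72). It also lost it, with the filter applied again, without any 1 Input library (0.37 without K562 Input replicate 3 to 0.40 without K562 Input replicate 1) and without K562 IP replicate 2 (0.79), and on the unchanged list without K562 IP replicate 1 (0.83).

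The genes most like each member in level over the 12 libraries were ranked by the root mean square difference in log2 CPM among 14242 genes. For TET1 they were MCPH1 (0.19), PARD3 (0.35) and TRIP12 (0.35). For TET2 they were BCLAF1 (0.34), G3BP1 (0.38) and PIAS2 (0.40), and for TET3 SOGA1 (0.31), NBEAL2 (0.32) and SSBP2 (0.34). For ALKBH1 the nearest were UBL3 (1.00), LPCAT1 (1.20) and RNPC3 (1.23), farther off than for any TET gene. The 12 libraries include K562 IP, where ALKBH1 held 0, 5 and 0 counts. How much of its distance comes from counting noise there was not tested.

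Other genes of the m5C pathway give the setting. All genes tested are the background for each list below: in mESC 39.9% were higher in IP and 42% lower. In K562, 15.1% were higher and 16.4% lower. Between lines, 16.5% were higher in K562 and 14.5% lower. Median log2 IP/Input in the highest decile of Input level was -1.94 in mESC and -0.62 in K562. The writers of RNA m5C are the NSUN methyltransferases, NOP2 and TRDMT1. In mESC 6 of 8 were lower in IP and 1 was higher (median log2 -1.33). NOP2, a ribosomal RNA methyltransferase, was the lowest (Nop2, log2 -2.20, 69.8 CPM ± 23.2 in IP against 167 ± 6.19 in Input). Nsun7 was the highest at 3.84 (27.8 CPM ± 9.08 against 1.00 ± 0.434). In K562, 2 of the 6 tested were lower and 1 higher. NSUN3, a mitochondrial tRNA methyltransferase, had 3 IP counts in all, a CPM ratio of 0.229 (exact 95% interval 0.0471 to 0.670), and NSUN4 was higher at 0.57 (SE 0.205). In the test between lines 2 of 8 writers were higher in K562 and 1 lower.

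All 7 readers of m5C were lower in mESC IP by edgeR, beside 42% of all genes tested, and 6 by DESeq2 (median -2.23). No reader was higher at an unadjusted p under 0.05. Alyref, the mRNA export adaptor, was the lowest at -3.75 (1 to 3 counts per IP library) and Mbd6 was nearest to 0 at -0.96 (SE 0.331), with its sign turned by library size scaling (0.05). In K562, 3 of 7 were lower, with FMR1 lowest at -1.23 (SE 0.442), and YBX1, a cold-shock RNA-binding protein, was higher at 1.58 (SE 0.159, 370 CPM ± 27.3 in IP against 106 ± 1.72 in Input). Between lines 3 of 7 readers were higher in K562 and none was lower by edgeR, nor at an unadjusted p under 0.05, while DESeq2 called 1 lower.

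Partners of TET proteins and enzymes that bear on their cofactor included Pspc1, Ogt, Hcfc1, Cxxc4, Cxxc5 and the Idh genes. In mESC 7 of 9 were lower in IP (median -1.69). Hcfc1, a partner of OGT, was the lowest at -2.30 (SE 0.135). Cxxc4, whose product binds TET2, was the highest at 5.71 (SE 0.733), with 4 to 9 counts per IP library and 1 to 4 per Input library. In K562, 2 of 8 were lower, and OGT, the O-GlcNAc transferase that binds TET2 and TET3, was higher at 0.41 (SE 0.125). Between lines 5 of 9 were higher in K562 and none lower by edgeR, nor at an unadjusted p under 0.05, nor by DESeq2, which called 3 higher.

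Among genes of DNA methylation and base excision, 7 of 9 were lower in mESC IP (median -1.77), with Neil1 at -2.06 (SE 0.531). Dnmt3a, the de novo DNA methyltransferase, was the 1 gene called higher by edgeR, at 0.82 (SE 0.146, 199 CPM ± 57.9 in IP against 58.8 ± 0.694 in Input). Smug1, a uracil DNA glycosylase, stood at 0.56 (adjusted p = 0.0882, edgeR) and was called by DESeq2 (0.71, adjusted p = 0.0282), with RLE (0.73) and with library size alone (1.57). In K562 DNMT3A was again higher, at 0.92 (SE 0.319), and 2 of 8 were lower, with DNMT3B at -0.79 (SE 0.221). Between lines 3 of 9 were higher in K562 and 1 lower.

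The other AlkB family dioxygenases, relatives of ALKBH1, were lower in mESC IP for 6 of 8 genes by edgeR and 5 by DESeq2, and none was higher by either or at an unadjusted p under 0.05 (median -2.29). Alkbh6 stood at -2.82 with 5 IP counts in all, and Fto, an RNA demethylase for methylated adenosine, at -1.78 (SE 0.0668). In K562, 2 of 7 were lower by edgeR and 1 by DESeq2, and none was higher by either or at an unadjusted p under 0.05. FTO stood at -0.68 (SE 0.175), and ALKBH4 was at 0 counts in all 3 IP libraries, with an exact 95% interval of its CPM ratio that reached 1.03. Between lines none of the 8 was called by edgeR, while 2 had an unadjusted p under 0.05 and DESeq2 called 2.

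The counts of these lists depended on the scaling. With library size alone, 2 writers, 6 readers, 6 partners, 4 DNA methylation genes and 5 AlkB genes were lower in mESC IP, and no feeder marker was. In K562 with library size alone, 1 writer and 1 reader were lower and no partner, DNA methylation gene or AlkB gene was, where DESeq2 called 1 writer, 1 reader, 0 partners, 1 DNA methylation gene and 1 AlkB gene lower. The K562 median of the partner list was -0.04 with TMM, 0.08 with RLE and 0.22 with library size alone, and that of the DNA methylation list was -0.18, -0.06 and 0.09.

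Marker genes moved with the pull-down too. In mESC all 7 stem cell markers tested were lower in IP, beside 42% of all genes tested. They ran from Pou5f1 at -2.79 to Tfcp2l1 at -1.47, with none higher by edgeR, DESeq2 or at an unadjusted p under 0.05. Feeder markers were lower for 3 of 6, with Col3a1 at 3 IP counts in all (CPM ratio 0.415, exact 95% interval 0.0853 to 1.22), and higher for 1, Thy1 at 2.45 (SE 0.804). Of the K562 markers tested in mESC, 2 of 4 were higher, led by Tal1 at 4.93 (SE 0.756), and Tfrc was lower at -2.72 (SE 0.123). In K562, 2 of 6 K562 markers were higher, and TFRC was lower at -0.54 (SE 0.151). ESRRB, the 1 stem cell marker tested there, stood at 397 CPM in Input and -0.79 (SE 0.154), and PDGFRB, the 1 feeder marker tested, at 6.24 on 7 IP counts. Between lines 3 of 6 stem cell markers, 1 of 5 K562 markers and 1 of 5 feeder markers were higher in K562, and 2 K562 markers were lower.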

How the data were processed

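caRNA of 12 libraries was measured, 3 Input and 3 IP in each of mESC and K562, grouped by their titles because the antibody label goes against them. Deposited by the authors were unnormalized counts of reads for every gene in each library and, for the 3 mESC IP libraries, peak positions with a strand and no score. Per the study's methods and the submitters' processing notes, the authors used Trimmomatic 0.39 for trimming and HISAT2 2.1.0 for alignment to mm10 or hg38 with spike-ins, then Picard to remove duplicates, SAMtools 1.16.1 to split strands and MACS2 on each library and strand. Whether the gene counts were made after duplicate removal, by strand, or with intron reads was not stated. Overlapping and antisense genes and levels per kb of exons are therefore uncertain. Summary lines (19.0% to 19.3% of mESC Input records, 71.4% to 71.7% of mESC IP, 26.0% to 26.2% of K562 Input, 60.7% to 61.4% of K562 IP) stayed out of library sizes. Spike-in values were not used here, so levels are relative within a library.

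Genes were matched to GENCODE M21 (GRCm38) and 44 (GRCh38), releases other than those the study names: 99.9% of mouse and 99.1% of human identifiers matched. Tests were edgeR 4.0.16 (R 4.3.3) quasi-likelihood with TMM, filterByExpr and Benjamini-Hochberg adjustment at 0.05. Their SE is the absolute log2 value divided by the square root of F, and Input levels between lines carried exon lengths as offsets. CPM use library size without TMM factors, which ran from 0.697 to 1.43 in mESC. The common BCV (biological coefficient of variation) was 0.0583 for mESC and 0.00988 for K562. Shares and ratios had exact two-sided permutation tests (SciPy). Floors are 3 counts. Since reads carry no molecular identifiers here and are not independent molecules, intervals and floors cover counting error only. On simulated data with 200 changed genes (log2 change 2, at least 20 expected counts), 200 were recovered in each of the 4 fits and 3.85% to 6.10% of calls were false. The simulation used the common BCV for all genes. It does not cover members with fewer counts, such as TET2 (4 to 9) and ALKBH1 (0 to 5) in the K562 IP libraries.

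The members and lists were chosen with earlier results of these data known. Named were the members, the 3 genes most alike to each, the called gene with the highest and with the lowest log2 IP/Input of each list in each line, overlapping genes, and peaks in the bodies. Some genes that this rule names are not reported here. The rule asked for regions of at least 2 replicates, of which there were none, or for members without such a region the widest peak. All 5 peaks were described after their positions were seen. Sequences came from RefSeq GRCm38.p6; all 4 mouse genes had a promoter entry. Alternatives were other scalings (RLE, library size, DESeq2 1.42.0), no count filter, Input thinned to IP depth, GC correction, a replicate block and leaving out each library. Summing the K562 Input libraries, thinning on the unchanged gene list and blocking the shares, and the list counts under other scalings, were added after the data were seen.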

Additional observations from a re-analysis of the deposited data

Results flagged for a closer look

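For 2 members the IP/Input value differed between the cell lines by the interaction term over all 12 libraries. For TET1 the log2 difference, K562 minus mESC, was 0.88 (SE 0.245, adjusted p = 0.0063, edgeR). In the separate fits of each line log2 IP/Input was -2.00 in mESC and -0.48 in K562, lower in IP in 3 of 3 libraries of each line. For TET3 it was -1.97 (SE 0.248, adjusted p = 2.91e-07, edgeR). The separate fits gave 0.90 in mESC, where 3 of 3 IP libraries lay above Input, and -0.43 in K562, where 3 of 3 lay below. The interaction was fitted on the genes of both species with 1 scaling over all libraries, so it is not the difference of the separate values. Over the alternatives with all libraries the adjusted p ranged from 2.51e-05 to 0.157 for TET1 and from 1.12e-29 to 0.000425 for TET3.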

How the results depend on the processing

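All mESC and Input-level member values kept their direction in the alternatives run, and the mESC calls held except Tet3 with replicate block and GC correction (0.36). In K562, TET1 lost its call with RLE (-0.36), library size (-0.21), DESeq2 (-0.36), the replicate block (-0.48, adjusted p = 0.0502), GC correction (-0.11), block and GC (-0.11), Input thinned to IP depth (0.054, a change of sign, and -0.13 on the unchanged gene list) and Input libraries summed (-0.49). TET3 lost it with RLE (-0.31), library size (-0.16), DESeq2 (-0.31), GC (-0.40), block and GC (-0.40), thinning (0.043, a change of sign, and -0.14) and summing (-0.43). TET2 lost it with GC (-0.67), block and GC (-0.67) and thinning (-0.58 and -0.76). ALKBH1 gained one without the count filter (-1.67) and had no value under thinning with the filter or without a K562 Input library. Without each library in turn, K562 TET1 ranged from -0.61 to -0.034, TET2 from -1.48 to -0.65, TET3 from -0.57 to 0.019 and ALKBH1 from -10.89 (without IP replicate 2, against 0 counts, so no bound) to -0.72. The loss without an Input library came with filtering again: on the unchanged gene list, without any Input library, TET1, TET2 and TET3 stayed called. There, without IP replicate 1, none was (adjusted p = 0.0656, 0.0506 and 0.0729, edgeR), and TET1 and TET3 were not without IP replicate 2 or 3.

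For the difference between lines, TET1 lost its call with RLE (0.44), library size (0.57), DESeq2 (0.44) and thinning on the unchanged gene list (0.72), and ranged from 0.37 to 0.95 without single libraries. TET2 gained one with block and GC (0.97). ALKBH1 changed sign with thinning (-0.27 and -0.41) and ranged from -9.40 (without K562 IP replicate 2, against 0 counts) to 1.34. Genes called in mESC (16590) fell to 6128 with thinning and were up to 16165 without an IP library. Without an Input library they were 9236 to 9251, or 15240 to 15291 on the unchanged gene list. Those in K562 (4576) were 8237 without the filter, 2942 with block and GC, 552 and 1193 with thinning, 3026 with Input summed, and 1090 to 1174 without an Input library (up to 4492 on the unchanged gene list). Those between lines (4407) were 1784 and 1774 with thinning. TET share differences between lines on raw counts were -31.2, -13.0 and 44.3 points. Tet2 peaks were 0 on the strand of the gene and 0 in 2 or 3 replicates, Tet3 peaks 2, 0 and 0, and without a replicate they ranged from 0 to 1 and from 2 to 4. The causes were not tested.

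Correlations of deviations between samples with the same replicate number were all under 0.1 in size. Counting noise in the IP libraries could hide a shared deviation, so whether the numbers pair samples cannot be decided. With replicate number as a block, 15434 genes were called in mESC, 3940 in K562 and 4499 between lines. Among members the block alone ended only the K562 TET1 call.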
